A study of Mus musculus with 3143 samples.

Results

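Monocytes and dendritic cells of the glomerular fraction were taken from a single-cell RNA table of mouse kidney as the cells that carried reads of Ccr2, Clec10a or Plbd1 and lacked the markers of neighbouring leukocyte classes. A cell was admitted when Ccr2, Clec10a and Plbd1 together reached 100 counts per 1000000 reads (CPM). It was turned away when Treml4, Cd300e and Adgre4, genes of non-classical monocytes, reached 100 CPM. It was also turned away when the C1q genes reached 500, the CD3 genes 150, the NK cell genes Ncr1, Klrb1c and Klre1 100, or Cd79a and Cd79b 300 CPM. The rule admitted 71 of 3143 cells, here called the gated cells, and they were thus chosen by their measured expression of these genes. Common leukocyte genes summed to 1000 CPM or more in 42 of the 71. The label, classical monocytes and dendritic cells, needs these genes, but they do not tell those types from other leukocytes. Of the 42, 7 passed none of the monocyte or dendritic marker gates given below, including 3 that were high in neutrophil genes. The other 29 of the 71 were low in the common leukocyte genes, at no more than 401 CPM, and 25 of them carried tubule markers.

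The study sorted single cells of an enzymatically dissociated glomerular fraction, positive for a CellTracker dye, into 384-well plates and read their full-length RNA by Smart-seq2. All mice were adult C57BL/6, and the labels give them as Control (1345 cells on 4 plates) or IgAN (1798 cells on 6 plates), a model of IgA nephropathy, in which IgA is deposited in the glomerular mesangium. The sources used here do not say how the disease was brought about or how many animals were used. No label ties a cell to an animal and every plate holds 1 group, so each group was 1 sample, no test was run, and plate and group cannot be told apart. Intervals are exact at 95% (binomial for shares, Poisson for summed reads) and cover counting error only, since reads carry no molecular identifiers. The gated cells had 51998 to 658950 reads each with a median of 238405, against a median of 234207 over all cells. No cell name occurred more than once.

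Classical monocytes leave the bone marrow through the chemokine receptor CCR2, circulate briefly and enter inflamed tissue, where they can take on macrophage or dendritic features. Conventional dendritic cells take up antigen and present it on MHC class II molecules to T cells; after activation they switch on CCR7 and move to lymph nodes. Plasmacytoid dendritic cells carry Siglec-H in the mouse and are known as makers of type I interferon. In glomerulonephritis, monocytes and dendritic cells gather in and around glomeruli, and the kidney tubulointerstitium holds its own dendritic cells.

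The bases upstream of a RefSeq transcript start are shown for 3 genes. Ccr2 and Plbd1 are admitting genes of the rule. Ccr2 reached 100 CPM in 32 cells high in leukocyte genes and 2 low in them, and Plbd1 also admitted most of the cells with tubule markers. Siglech has no part in the rule and was taken afterwards as the leading gene of the leukocyte-positive cells. No window was available for Clec10a, the other admitting gene. Each window is the 250 bases before the RefSeq transcript start in GRCm38.p6, written 5′ to 3′ on the gene's strand. The windows lie at chr9:124101933-124102182 (plus strand, Ccr2), chr6:136661894-136662143 (minus strand, Plbd1) and chr7:55767934-55768183 (plus strand, Siglech). GENCODE vM21 starts the genes inside these windows, at 124101950 for Ccr2, 136661928 for Plbd1 and 55768178 for Siglech. By that annotation most of the Ccr2 window lies within the gene. Capitals mark a C/EBP motif, which has its first base 169 bases before the RefSeq transcript start of Siglech.
Ccr2: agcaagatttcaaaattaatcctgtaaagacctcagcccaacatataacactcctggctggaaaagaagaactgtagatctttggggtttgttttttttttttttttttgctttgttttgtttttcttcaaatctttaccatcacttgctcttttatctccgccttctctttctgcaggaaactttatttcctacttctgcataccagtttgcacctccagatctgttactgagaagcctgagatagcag
Plbd1: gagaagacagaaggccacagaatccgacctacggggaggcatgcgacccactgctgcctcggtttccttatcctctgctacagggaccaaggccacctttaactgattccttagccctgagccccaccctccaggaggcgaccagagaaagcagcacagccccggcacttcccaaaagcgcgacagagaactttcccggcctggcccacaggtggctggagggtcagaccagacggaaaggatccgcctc
Siglech: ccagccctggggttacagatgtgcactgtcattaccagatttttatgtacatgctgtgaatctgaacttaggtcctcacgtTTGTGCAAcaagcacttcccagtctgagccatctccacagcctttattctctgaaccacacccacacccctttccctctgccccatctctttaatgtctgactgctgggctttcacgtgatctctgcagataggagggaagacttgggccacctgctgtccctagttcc
The motifs searched on both strands included GAGGAAGT for PU.1, TTGCNNAA for C/EBP, CAAAGTCCA for HNF4 and TGANTCA for AP-1. Over 32851 RefSeq windows of this length they occurred in 2.44%, 9.56%, 0.384% and 6.75%. None of these letters occurred in the Ccr2 or Plbd1 window. The Plbd1 window holds 60.8% G and C with 11 CG pairs, the Ccr2 window 37.2% with 1 and the Siglech window 50.8% with 2, beside medians of 52.4% and 6 over all windows. A letter match is a description and shows no binding.

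The gated cells were few in both groups. In IgAN 45 of 1798 cells met the rule (2.50%, 1.83 to 3.33), and in Control 26 of 1345 cells did (1.93%, 1.27 to 2.82). On the IgAN plates the share was 2.99% on plate 313, 4.10% on 315, 2.96% on 316, 1.33% on 318, 0.379% on 322 and 2.99% on 325. On the Control plates it was 1.15% on plate 314, 3.00% on 317, 2.35% on 321 and 1.37% on 326. The plates of the groups overlapped, and the spread between plates of 1 group exceeded the difference between groups. For the 214 cells with 100 CPM or more of Treml4, Cd300e and Adgre4, the IgAN share was 7.84% (6.64 to 9.18; plates 3.79 to 15.4%). The Control share was 5.43% (4.28 to 6.78; plates 2.35 to 7.16%), so these plates overlapped as well.

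**Figure D1:**
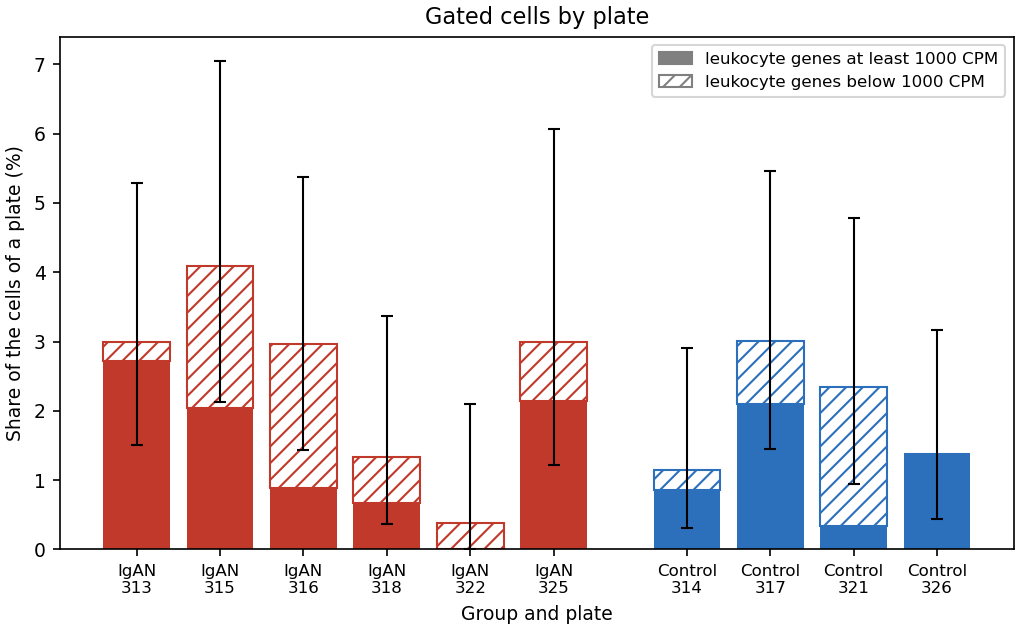
Gated cells as a percentage of the cells of each plate, split into leukocyte-positive (solid) and leukocyte-low (hatched) cells, with IgAN plates in red and Control plates in blue. Error bars are exact 95% binomial intervals of the whole share; the plates of both groups overlap, from 0.379% on IgAN plate 322 to 4.10% on IgAN plate 315.

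Whether the gated cells were leukocytes was read from Ptprc (CD45), Laptm5, Tyrobp and Coro1a, genes shared by most leukocytes and not used by the rule. Their sum split the gated cells with a gap: the highest value below was 401 CPM and the lowest above was 1489 CPM. With a limit of 1000 CPM, 42 of 71 were leukocyte-positive (59.2%, 46.8 to 70.7), with a median of 7303 CPM. The 29 leukocyte-low cells had a median of 26.9 CPM. They were 19 of 45 gated IgAN cells (42.2%) and 10 of 26 gated Control cells (38.5%). Leukocyte-positive cells numbered 10, 6, 3, 2, 0 and 5 on IgAN plates 313, 315, 316, 318, 322 and 325, and 3, 7, 1 and 5 on Control plates 314, 317, 321 and 326. Counted alone they were 1.45% of IgAN cells (0.947 to 2.11) and 1.19% of Control cells (0.681 to 1.92), and their plates also overlapped.

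**Figure D2:**
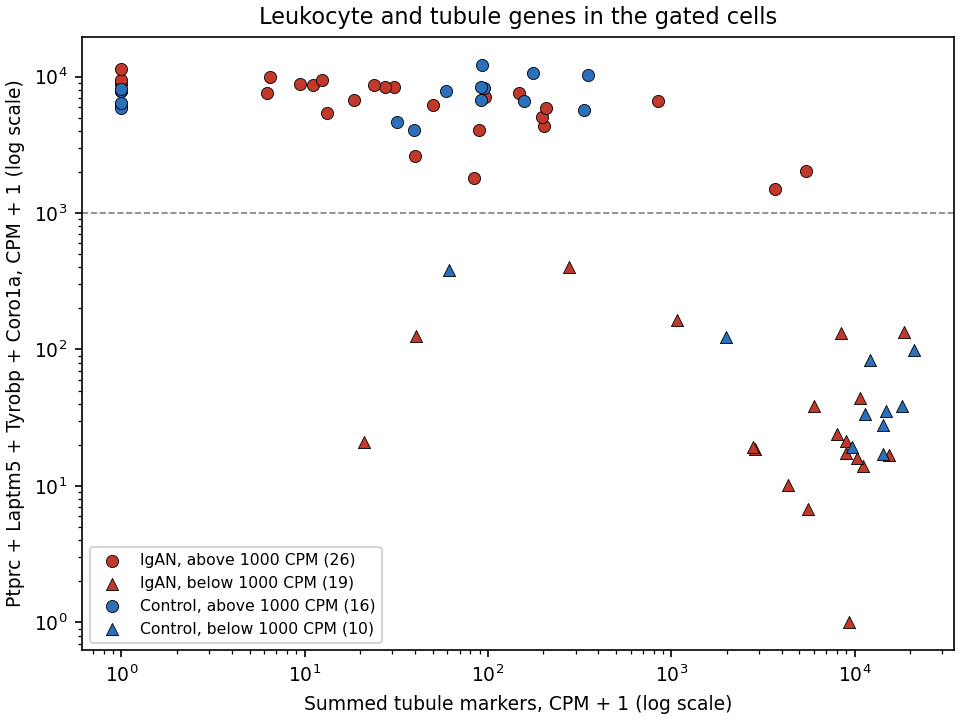
Each point is 1 gated cell, placed by the summed CPM of 8 tubule markers (log scale, 1 added) and of the leukocyte genes Ptprc, Laptm5, Tyrobp and Coro1a (log scale, 1 added); circles lie above the 1000 CPM limit and triangles below. Of the 29 cells below the limit, 25 lie at 1000 CPM or more of tubule markers, and so do 2 of the 42 above it.

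The leukocyte-low cells carried genes of other kidney cells. Their tubule markers summed to a median of 8981 CPM (20.1 to 21108), against 38.6 CPM in the leukocyte-positive cells. Slc34a1, the proximal tubule phosphate transporter, had a median of 4539 CPM in them and 4.31 CPM in the leukocyte-positive cells. Miox, a proximal tubule enzyme that breaks down inositol, had medians of 2058 and 2.91 CPM. F13a1 and the transcription factor gene Runx2 had no read in any of the 29, Ptprc reached at most 67.8 CPM, and Mpeg1, which encodes a pore-forming protein of phagocytes, at most 22.6 CPM. Plbd1, a phospholipase-like gene of myeloid granules, admitted 24 of the 29 on its own, with a median of 266 CPM. Of 344 cells in the whole table with tubule markers of 1000 CPM or more and low leukocyte genes, 26 had 100 CPM or more of Plbd1 (7.56%, 5.00 to 10.9). That was 17 of 215 in IgAN (7.91%, 4.67 to 12.4) and 9 of 129 in Control (6.98%, 3.24 to 12.8). Another 2 leukocyte-low cells, at 154 and 368 CPM of Ccr2, carried Itga8, an integrin of mesangial cells, at 1766 and 3908 CPM. Endothelial markers of 1000 CPM or more were present in 8 leukocyte-low and 9 leukocyte-positive cells. Some leukocyte-low cells passed gates given below: 2 the cDC2 and mature dendritic gates, 1 the mature dendritic gate only and 1 the plasmacytoid gate only. The first 2 had 381 and 401 CPM of the leukocyte genes and 1268 and 3680 CPM of Cd74. Their endothelial markers summed to 15604 and 9293 CPM. The part of doublets or free RNA in these readings was not tested.

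The genes leading the leukocyte-low cells over all ungated cells included solute transporters, given as levels in both and without a test. Slc13a1, a sulphate transporter, stood at 792 against 23.4 CPM. The amino acid transporter Slc6a19 stood at 521 against 18.9 CPM. Slc16a14, Myo7b and Cdhr2, the last 2 parts of the brush border, led the list. Slc13a1 also stood among the 15 genes leading all 71 gated cells, at 305 CPM.

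At its limit the rule separated cells of the same kind. The 5 gated cells nearest the limit had 101, 126, 136, 151 and 154 CPM of the 3 genes, and the 5 nearest cells outside had 92.9, 91.3, 88.0, 78.3 and 74.7 CPM. None of the 13 cells between 50 and 100 CPM was leukocyte-positive, and 2 of the 12 between 100 and 200 CPM were. The gated cells had a median of 723 CPM and a highest value of 6425 CPM. Below the limit, 20 leukocyte-positive cells remained that met every other condition; 9 of them had 1000 CPM or more of neutrophil genes and 10 had 100 CPM or more of Cd74. The admitting genes were not confined to these cells: 186 of the 214 cells of the Treml4, Cd300e and Adgre4 gate also reached 100 CPM of them.

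Among the leukocyte-positive cells, the admitting genes combined in several ways. All 3 genes reached 100 CPM in 13 cells, Ccr2 with Plbd1 in 13, Plbd1 alone in 10, Ccr2 with Clec10a in 4 and Ccr2 alone in 2. Ccr2 ranged from 0 to 3541 CPM, with a median of 426 in IgAN and 413 in Control. Plbd1 ranged from 0 to 2907 CPM, with medians of 708 and 1016. Clec10a, a lectin receptor that binds galactose-type sugars, reached 100 CPM in 17 of the 42. These 3 values follow from the rule and are given as description. Per gene, Ccr2 lies at chromosome 9, 124101950 to 124113557, Plbd1 at chromosome 6, 136612070 to 136661928, and Clec10a at chromosome 11, 70156197 to 70170834 (GRCm38, GENCODE vM21).

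**Figure D3:**
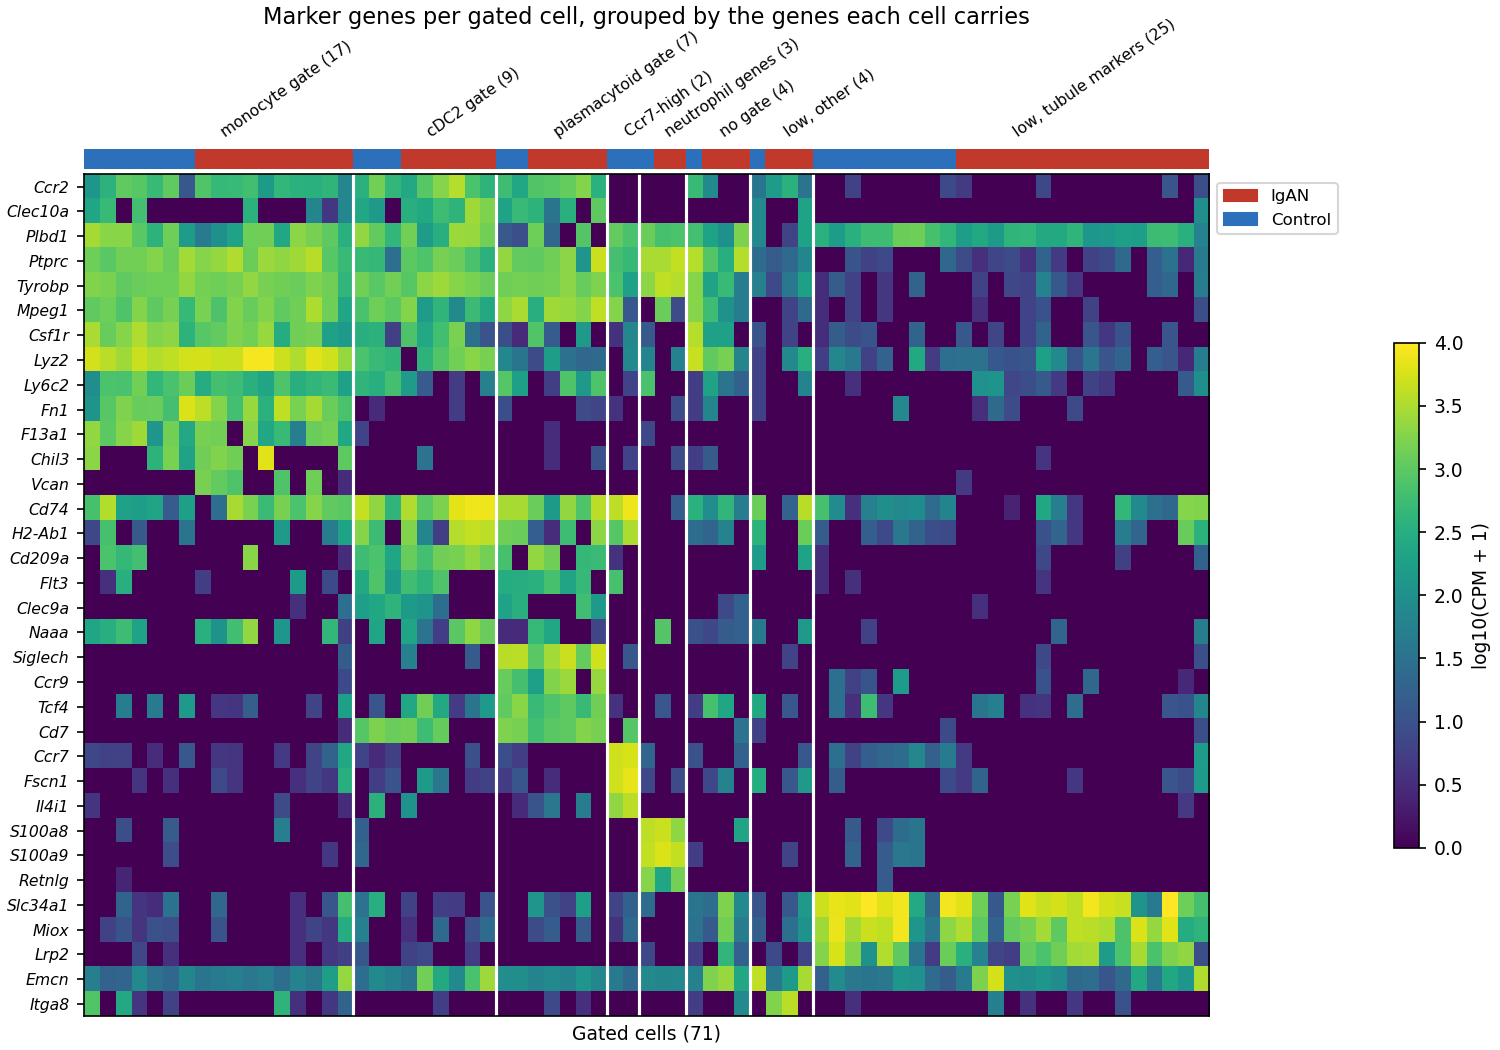
Each column is 1 of the 71 gated cells and each row a marker gene, coloured by log10(CPM + 1); the strip gives the group, and each cell is placed in the first block it meets, with the number of cells in brackets. All 17 monocyte gate cells carry reads of Fn1 and Lyz2 and 16 carry F13a1, and the 7 plasmacytoid gate cells carry Siglech, Tcf4 and Cd7. Fn1, F13a1 and Siglech are genes of these gates, so their reads follow in part from the selection. Of the 29 leukocyte-low cells, 23 reach 100 CPM of Slc34a1, 24 of Miox and 19 of Lrp2.

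Gates of 100 CPM over pairs or sets of markers divided the leukocyte-positive cells; a gate is a range of expression and not a cell type. The monocyte gate (Fn1, Vcan, F13a1 and Chil3) held 17 of 42 cells (40.5%, 25.6 to 56.7), 10 from IgAN and 7 from Control. The cDC2 gate (Cd209a and Mgl2) held 18 (42.9%, 27.7 to 59.0), 11 and 7. The cDC1 gate (Xcr1 and Clec9a) held 9, 4 and 5; all came through Clec9a, since Xcr1 never passed 36.3 CPM, and 5 cells lay between 50 and 200 CPM. The plasmacytoid gate (Siglech and Ccr9) held 7 (16.7%, 6.97 to 31.4), 5 and 2. The mature dendritic gate (Ccr7 and Fscn1) held 4, 2 of each group. Cells with more than 1 gate numbered 16, cells with exactly 1 numbered 19 and cells with none numbered 7. For every gate the exact intervals of the IgAN and Control shares overlapped.

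The 17 monocyte gate cells carried the genes of classical monocytes that the gate did not use. Lyz2, which encodes lysozyme, had a median of 4811 CPM (2299 to 8932) and was read in every cell. Ly6c2, which marks classical monocytes in mice, had a median of 535 CPM (92.0 to 1426), and Csf1r, the receptor for macrophage colony stimulating factor, 1414 CPM (143 to 3383). Flt3, a growth factor receptor of dendritic cells, had a median of 0. Ly6c2 belongs to a family of near-identical copies, so its count is uncertain. Vcan, which encodes the proteoglycan versican, is a gene of the gate, so its level there follows in part from the selection. Within the gate Vcan reached 100 CPM in 5 of 10 IgAN cells (50.0%, 18.7 to 81.3) and in 0 of 7 Control cells (up to 41.0%). The 5 cells had 777, 793, 1088, 1292 and 1498 CPM; 4 lay on plate 313 and 1 on plate 316, and no read of Vcan was found in any gated Control cell. In the Treml4, Cd300e and Adgre4 gate, Vcan reached 100 CPM in 3 of 141 IgAN and 5 of 73 Control cells, the other direction.

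The cDC2 gate held 14 cells outside the monocyte gate, and 5 of these also passed the plasmacytoid gate. Over the 14, F13a1 did not pass 5.38 CPM and Lyz2 had a median of 399 CPM. Cd74, the invariant chain that guides MHC class II molecules, had a median of 2556 CPM, against 692 CPM in the monocyte gate. Flt3 had a median of 323 CPM. H2-Ab1, a chain of the class II molecule, had a median of 961 CPM, against 0 in the monocyte gate. In the 9 cells outside the plasmacytoid gate, the medians were 727 CPM for Lyz2, 3304 CPM for Cd74, 264 CPM for Flt3 and 1742 CPM for H2-Ab1.

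The 7 cells of the plasmacytoid gate had 953 to 5054 CPM of Siglech. Siglech is a gene of this gate, so its level there follows in part from the selection. No cell of the Treml4, Cd300e and Adgre4 gate passed 47.0 CPM of Siglech, and no leukocyte-low cell passed 8.24 CPM. Genes that the plasmacytoid gate did not use were also high in its 7 cells. Tcf4, the transcription factor that sets plasmacytoid dendritic cell identity, was at 515 to 1978 CPM in the 7, Runx2 at 305 to 2567 CPM, Irf8 at 1279 to 4953 CPM and Cd7 at 619 to 1826 CPM. Markers of B or plasma cells summed to a median of 1888 CPM there (913 to 3677), against 25.1 CPM in the monocyte gate. Plbd1 had a median of 12.3 CPM (0 to 1324) and reached 100 CPM in 2 of the 7, and Ccr2 admitted all 7, at 238 to 1836 CPM. Lyz2 did not pass 167 CPM.

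The cells left over held other leukocytes. Only 2 gated cells, both Control, reached 1000 CPM of Ccr7 and Fscn1, with Ccr7 at 5144 and 5778 CPM, Fscn1, an actin bundler of mature dendritic cells, at 5085 and 7222 CPM, and Il4i1 at 2202 and 3825 CPM. The 2 IgAN cells of the mature gate stood lower, the higher at 241 CPM of Ccr7. In 3 cells, 2 IgAN and 1 Control, the neutrophil genes S100a8 (2084 to 4769 CPM) and S100a9 (4218 to 6019 CPM) were high. These 3 had no read of Ccr2 and were admitted by Plbd1 at 681 to 1280 CPM.

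Set against the Treml4, Cd300e and Adgre4 gate, the leading genes of the leukocyte-positive cells included Siglech, which reached 100 CPM in 7 of the 42. Summed over cells, Siglech stood at 704 against 0.918 CPM, Spib, a transcription factor of plasmacytoid dendritic cells, at 365 against 1.49, and Cd7 at 496 against 19.6. The signalling adapter Blnk stood at 109 against 0.774 and the interleukin receptor Il7r at 81.1 against 0.576. Ccr7 stood at 255 against 5.53, but 95.4% of its reads came from 2 cells, and without them it stood at 12.2. Csf1r was lower, with a median of 315 CPM against 1465, and Lyz2 had medians of 1443 and 4031 CPM. Membership of both sets was fixed by expression, so these differences carry no test.

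IgAN and Control were then compared by summing reads over the gated cells of a group and taking the difference of log2(CPM + 1). A gene was measured at 10 CPM and a read in 10% of cells in 1 group. The size rule asked for a difference of at least 1 and for all plates with 5 or more gated cells of 1 group to lie above all such plates of the other. Plates 313, 315, 316 and 325 for IgAN and 317, 321 and 326 for Control had that many. In a sum, fewer cells of a kind and less RNA per cell cannot be told apart. Of 10650 measured genes, 536 met the rule as higher in IgAN (5.03%) and 162 as lower (1.52%). With median-of-ratios scaling the numbers were 468 and 289, so the higher share went from 76.8% to 61.8% of the genes that met it. Without plate 313, 317, 321 or 326 the numbers were 849, 1021, 881 and 1043 higher and 298, 386, 509 and 407 lower. In the Treml4, Cd300e and Adgre4 gate, with more cells and more plates, 0.897% of 9806 measured genes were higher and 0.388% lower. Genes that met the rule in the gated cells were mostly read in few cells. The genes higher in IgAN had a read in a median of 16 of 45 cells, and a median of 32.1% of their reads came from 1 cell; only 16 of the 536 also met the rule as higher in the Treml4, Cd300e and Adgre4 gate.

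The 12 largest higher differences were Snap47, Ahr, Evi5, Ctps, Flot2, Vcam1, Zfp35, Tsr2, Rmnd5a, Ide, Spns2 and Slc7a5, at log2 differences of 5.53 to 6.10. In the monocyte gate alone, that is the 8 IgAN and 4 Control cells that passed this gate and no other, Ctps (-0.86) and Spns2 (-1.39) had the other sign. Ahr, the aryl hydrocarbon receptor, stood at 81.0, 135, 2.44, 19.8, 0 and 41.4 CPM on IgAN plates 313, 315, 316, 318, 322 and 325. On Control plates 314, 317, 321 and 326 it stood at 0, 0.355, 0 and 0 CPM. Over the groups that was 69.1 (64.3 to 74.1) against 0.134 CPM (0.0034 to 0.747), with reads in 17 of 45 and 1 of 26 cells. In the ungated cells its log2 difference was 0.33. Slc7a5, the large neutral amino acid transporter, stood at 51.3 (47.2 to 55.6) against 0.134 CPM, with reads in 12 of 45 cells. Vcam1, a leukocyte adhesion molecule, stood at 69.2 (64.5 to 74.2) against 0.268 CPM, and it was also higher in ungated cells, by 1.93.

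The 12 largest lower differences were Lss, Uhrf1, Tbc1d25, Iba57, Klhl28, Strip2, Rltpr, Coil, Fbxo46, Ankib1, Lamb3 and Cyp2s1, at log2 differences of -6.01 to -4.45. Lss, an enzyme of cholesterol synthesis, stood at 0.617 (0.248 to 1.27) in IgAN against 103 CPM (96.1 to 111) in Control, with reads in 9 of 26 Control cells. In those 8 IgAN and 4 Control cells of the monocyte gate alone Lss (0.56), Strip2 (0.68) and Coil (3.39) had the other sign. These signs rest on few reads: over all gated cells, Lss had 7 and Strip2 8 IgAN reads. Coil had 22, of which 90.9% came from 1 cell. Uhrf1, which maintains DNA methylation in dividing cells, stood at 0.0881 against 66.3 CPM, and 63.6% of the Control reads came from 1 cell. Iba57 and Cyp2s1 had no read in IgAN, and 98.7% and 96.8% of their Control reads came from 1 cell. Ankib1 was spread most widely, at 5.99 against 155 CPM with reads in 12 of 26 Control cells.

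The same comparison was made in the leukocyte-positive cells alone, where 3 IgAN plates (313, 315 and 325) and 2 Control plates (317 and 326) had 5 cells. Of 9876 measured genes, 1052 met the rule as higher (10.7%) and 578 as lower (5.85%); with fewer plates, fewer values have to lie apart. When plates of at least 3 cells were counted, a limit chosen after seeing the data that leaves 4 IgAN and 3 Control plates, 362 genes were higher and 217 lower. The genes higher in all gated cells shared 329 with this set, 61.4% of the 536 and 31.3% of the 1052. Of those lower, 105 were shared, 64.8% of the 162 and 18.2% of the 578. C1galt1, which builds the core of O-linked sugars, led the higher genes, at 110 CPM (102 to 119) against 0 (up to 0.694), from 10 of 26 cells. Its plates stood at 5.38, 171 and 368 CPM on 313, 315 and 325, and 42.2% of its reads came from 1 cell. In ungated cells its log2 difference was 0.14.

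Most genes of the NF-kB pathway and inflammatory cytokines had lower sums in IgAN. Of 20 measured among the gated cells, 18 had negative differences, beside 45.5% of all measured genes, and the median was -0.63 against 0.11 over all. As lower, 5 met the size rule, beside 1.52% of all measured genes, and as higher 0, beside 5.03%. Rela, a subunit of NF-kB, stood at 68.7, 116, 80.2 and 114 CPM on IgAN plates 313, 315, 316 and 325, and at 346, 243 and 171 CPM on Control plates 317, 321 and 326. Over the groups that was 83.9 (78.6 to 89.4) against 271 CPM (260 to 283). Relb, a subunit tied to dendritic cell maturation, stood at 25.7 against 162 CPM, and 54.1% of the Control reads came from 1 cell. Tnfaip3, which restrains NF-kB, stood at 40.6 against 186 CPM, and Icam1, an adhesion molecule that NF-kB induces, at 123 against 370 CPM. Nfkbiz stood at 185 against 507 CPM, although in the dendritic gates alone its log2 difference was 1.497. That set took cells that passed 1 gate only, where this was a dendritic one. In IgAN it held 4 leukocyte-positive cells of the cDC2 gate and 1 leukocyte-low cell of the mature dendritic gate. In Control it held 2 cells of the mature dendritic gate, so the groups there differed in kind of cell. Tnf itself stood at 49.4 against 364 CPM and did not meet the rule, because plate 325 had 250 CPM and plate 317 had 136 CPM. Il1b stood at 578 against 583 CPM.

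The inflammatory list had a median of -0.86 in the leukocyte-positive cells (6 of 21 lower and 0 higher, beside 5.85% and 10.7% of all measured genes). It was -0.37 in the Treml4, Cd300e and Adgre4 gate and 0.16 in the ungated cells. Nfkbie, an inhibitor of NF-kB, met the rule among leukocyte-positive cells at 77.1 against 356 CPM, and Tgfb1 at 12.4 against 79.7 CPM. The immediate early and dissociation genes, which rise during cell isolation, had medians of -0.37 in the gated and -0.29 in the leukocyte-positive cells. Their part in the NF-kB values was not tested. Nr4a1 among them stood at 1198 against 2293 CPM in the gated cells. Reads per leukocyte-positive cell had medians of 233347 in IgAN and 343635.5 in Control, and genes per cell 5841.5 and 5361.5, or 3667.5 and 3253 after thinning to 50000 reads.

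Costimulatory genes, which give T cells their second signal, had medians of -1.20 in the gated and -0.99 in the leukocyte-positive cells. In the gated cells 9 of 10 measured were negative, beside 45.5% of all measured genes. In the gated cells 0 of the 10 met the rule, beside 5.03% of all measured genes as higher and 1.52% as lower. With 10 genes, such shares leave little room for a call. The list medians of single plates of gated cells, taken against the Control sum, overlapped between groups, from -3.81 to 0.35 in IgAN and from -5.12 to -0.10 in Control. In the leukocyte-positive cells 1 of 10 measured met the rule as lower, beside 5.85% of all measured genes. It was Cd83, a maturation marker of dendritic cells, at 224 (213 to 236) against 630 CPM (608 to 651). Its plates stood at 204, 284 and 119 CPM on 313, 315 and 325 and at 834 and 581 CPM on 317 and 326. On the plates with fewer cells Cd83 stood at 553 and 2.92 CPM on IgAN plates 316 and 318 and at 522 and 0 CPM on Control plates 314 and 321. Plates 316 and 314, with 3 cells each, thus overlapped, and Cd83 does not meet the rule when they are counted. Cd86 stood at 106 against 134 CPM in the leukocyte-positive cells and did not meet the rule. MHC class II genes had medians of -0.05 in the gated and 0.03 in the leukocyte-positive cells. In the gated cells 0 of 13 met the rule, beside 5.03% of all measured genes as higher and 1.52% as lower. In the leukocyte-positive cells 2 of 14 met it as higher, beside 10.7%, and 1 as lower, beside 5.85%. H2-Ob (73.1 against 6.39 CPM) and Ciita (86.3 against 29.7 CPM) were higher, and H2-Eb2 (0.153 against 14.1 CPM) lower. For Ciita 98.0% of the IgAN reads came from 1 cell, and for H2-Eb2 98.7% of the Control reads. Cd74 stood at 1315 (1294 to 1336) against 1364 CPM (1338 to 1391) in the gated cells, with plates of 569 to 3908 CPM in IgAN and 50.2 to 2286 CPM in Control that overlapped throughout. In the Treml4, Cd300e and Adgre4 gate Cd74 stood at 953 against 2429 CPM, with a list median of -1.29, and in the ungated cells the list median was -1.28. The difference between these sets was not tested. MHC class I genes had medians of -0.58 in the gated and -0.42 in the leukocyte-positive cells. Tap1, the peptide transporter of this pathway, met the rule in the latter at 169 against 407 CPM. H2-D1 and H2-K1 are close copies, and their counts are uncertain.

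**Figure D4:**
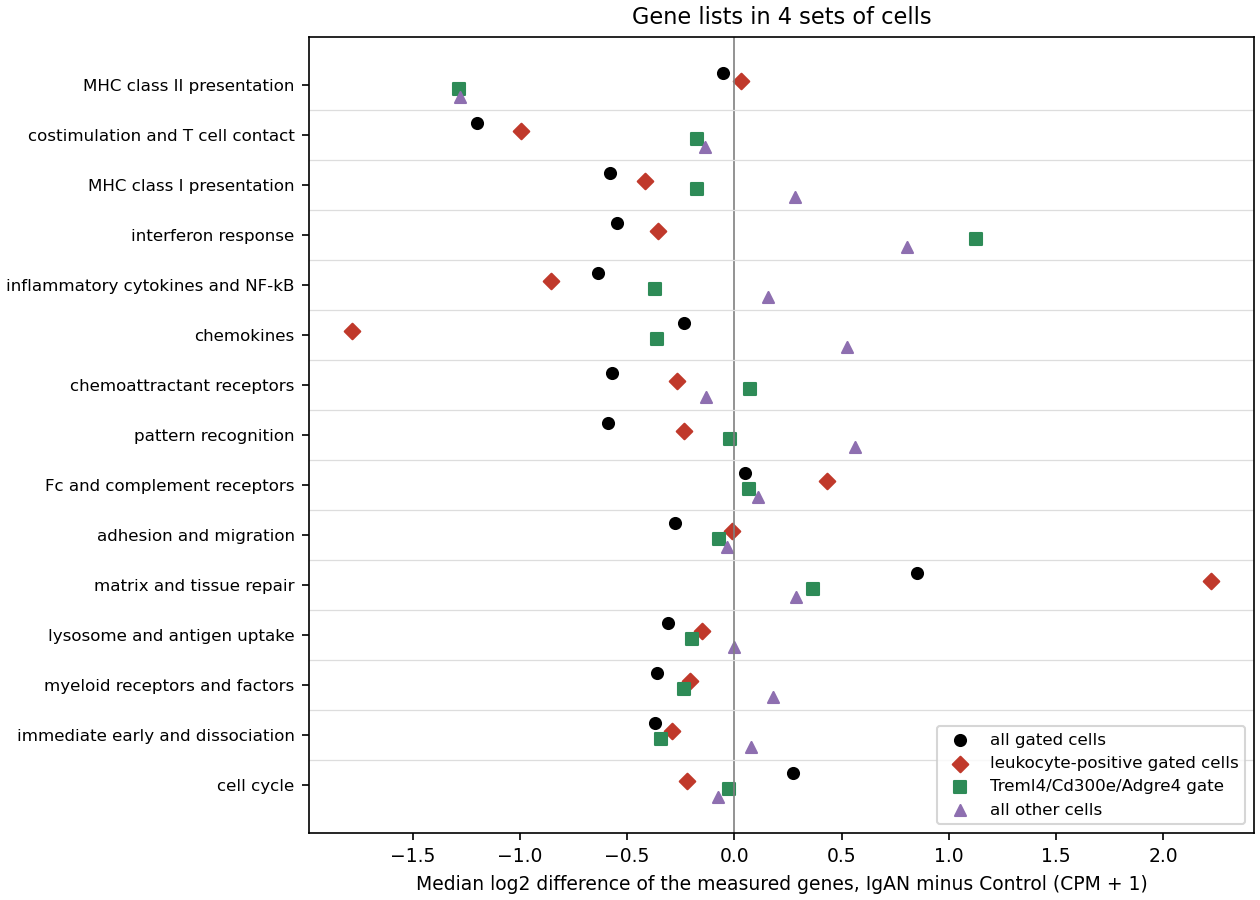
Median log2 difference in CPM + 1, IgAN minus Control, over the measured genes of 15 gene lists, in all gated cells (black circles), leukocyte-positive gated cells (red diamonds), the Treml4, Cd300e and Adgre4 gate (green squares) and all other cells (purple triangles). The interferon list lies at -0.55 and -0.36 in the gated and leukocyte-positive cells and at 1.13 and 0.81 in the other sets, while the MHC class II list lies at -0.05 and 0.03 in the former and at -1.29 and -1.28 in the latter.

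Summed over all gated cells, interferon response genes were not higher in IgAN as a list. Of 34 measured, 10 had positive differences and the median was -0.55. In the leukocyte-positive cells it was 11 of 35 and -0.36, beside 54.5% and 54.8% of all measured genes. The list medians of single plates of gated cells overlapped, from -1.42 to -0.39 in IgAN and from -3.25 to 0.71 in Control. The list median was positive, up to 2.71, in the monocyte gate alone, the dendritic gates alone and without plate 317. There the median of all measured genes was 0.70, 1.30 and 0.13. The dendritic gates alone set 4 IgAN cells of the cDC2 gate and 1 leukocyte-low IgAN cell against 2 Control cells of the mature dendritic gate. In the Treml4, Cd300e and Adgre4 gate 32 of 35 were positive with a median of 1.13, and in the ungated cells 34 of 35 with a median of 0.81. Stat2, a signal transducer of the type I interferon receptor, met the rule as lower. It stood at 14.0 (11.9 to 16.4) against 150 CPM (141 to 159), from 9 of 26 Control cells. In the few cells of the dendritic gates alone its log2 difference was 1.61. Cxcl10, an interferon-induced chemokine, met the rule as higher at 13.0 CPM (11.0 to 15.3) in 12 of 45 IgAN cells against no read in 26 Control cells (up to 0.495 CPM). Its plates stood at 0.373, 26.5, 0.489 and 32.5 CPM on 313, 315, 316 and 325, so plates 315 and 325 had the higher levels. Isg15, a ubiquitin-like interferon target, stood at 32.8 against 17.7 CPM, and Irf7, a regulator of interferon genes, at 211 against 363 CPM. Irf8, which directs dendritic cell development, had a median per leukocyte-positive cell of 74.0 CPM in IgAN and 471 CPM in Control; the cells ranged from 0 to 4953 CPM in IgAN and from 0 to 2892 CPM in Control.

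In the gated cells 1 of 10 measured chemokines, Cxcl10, met the rule as higher, beside 5.03% of all measured genes. Of 16 measured chemoattractant receptors 1, Fpr2, did so. Among leukocyte-positive cells, Ccl5, which draws T cells, stood at 5.53 against 135 CPM and Cxcl2, which draws neutrophils, at 2.76 against 121 CPM. Of those Control reads, 92.6% and 57.1% came from 1 cell, and Cxcl2 does not meet the rule when plates of 3 cells are counted, since Control plate 314 had no read. Ccl9, Ccl6 and Ccl4, chemokines of myeloid cells, stood at 471, 422 and 301 CPM in the IgAN gated cells and 531, 433 and 313 CPM in Control. Fpr2, a formyl peptide receptor, met the rule at 38.2 CPM (34.7 to 42.0) in 11 IgAN cells against no read in Control. Ccr7 stood at 12.1 against 393 CPM, of which 62.3% came from 1 Control cell. A low level of Ccr7 was common in Control: 14 of 16 leukocyte-positive, 8 of 10 leukocyte-low and 51 of 73 Treml4, Cd300e and Adgre4 gate cells had a read, with medians of 5.20, 18.1 and 6.15 CPM. In IgAN the numbers were 8 of 26, 3 of 19 and 35 of 141.

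**Figure D5:**
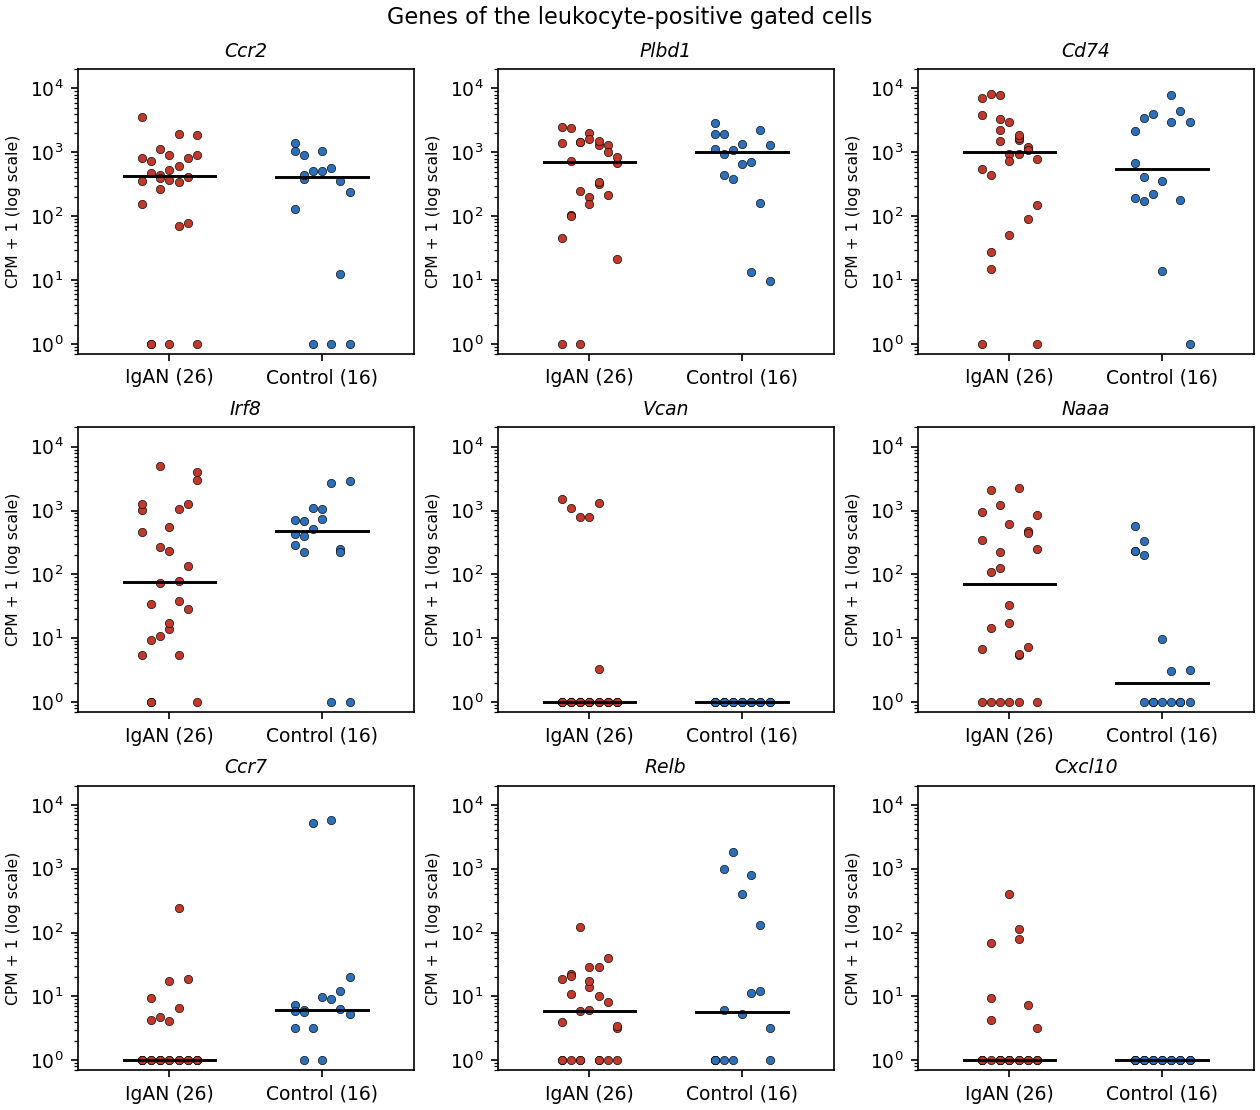
CPM + 1 (log scale) of 9 genes in the 26 IgAN and 16 Control leukocyte-positive cells; each point is 1 cell and the bar is the median. The groups overlap in Cd74 and in Ccr2, whose highest value is 3541 CPM in IgAN and 1400 CPM in Control; Vcan above 100 CPM is seen in 5 IgAN cells, and Ccr7 above 1000 CPM in 2 Control cells.

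Genes of matrix and tissue repair were the list with the highest median in IgAN. In the gated cells 13 of 18 measured had positive differences with a median of 0.85, and in the leukocyte-positive cells 16 of 18 with a median of 2.22, beside 54.5% and 54.8% of all measured genes. Of the 18, 1 met the rule as higher in the gated cells, beside 5.03% of all measured genes, and 2 in the leukocyte-positive cells, beside 10.7%. The list medians of single plates of gated cells, taken against the Control sum, overlapped, from -2.05 to 1.26 in IgAN and from -2.66 to -0.09 in Control. In the Treml4, Cd300e and Adgre4 gate the median was 0.37 and in the ungated cells 0.29. Timp2, an inhibitor of matrix metalloproteases, met the rule in the gated cells at 38.6 (35.0 to 42.4) against 1.74 CPM (0.928 to 2.98), with reads in 27 of 45 IgAN cells. Mmp12, the macrophage elastase, met it in the leukocyte-positive cells at 93.6 (86.3 to 101) against 1.13 CPM. Its plates stood at 2.07, 177 and 115 CPM on 313, 315 and 325 and at 0 and 1.17 CPM on 317 and 326. On the plates with fewer cells Mmp12 stood at 281 and 0 CPM on IgAN plates 316 and 318. On Control plates 314 and 321 it stood at 0 and 10.5 CPM. Control plate 321, with 1 cell, thus lay above IgAN plates 313 and 318. Spp1, which encodes osteopontin, stood at 413 against 2.63 CPM in the leukocyte-positive cells and did not meet the rule, because plate 313 had 2.49 CPM and plate 317 had 3.26 CPM. Of its IgAN reads, 52.2% came from 1 cell. In the leukocyte-low cells Spp1 had medians of 2464 CPM in IgAN and 2311 CPM in Control. Fn1, fibronectin, stood at 434 against 431 CPM in the gated cells and F13a1, coagulation factor XIII A, at 172 against 504 CPM, and neither met the rule.

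In the gated cells 1 of 25 measured genes of pattern recognition met the rule as higher, beside 5.03% of all measured genes. The list median was -0.59. The gene was Tlr4, the endotoxin receptor, at 20.2 (17.6 to 23.0) against 0.671 CPM, with reads in 19 of 45 and 5 of 26 cells. Of its 229 IgAN reads, 106 came from leukocyte-positive cells and the rest from leukocyte-low cells. In the leukocyte-positive cells Tlr4 met the rule at 16.3 against 0.564 CPM, with reads in 11 of 26 and 3 of 16 cells. The lysosomal genes had a median of -0.31, and Plbd2, a relative of Plbd1, was lower at 62.8 against 128 CPM. In the leukocyte-positive cells Naaa, a lysosomal hydrolase of lipid amides, was higher at 343 (329 to 358) against 138 CPM (129 to 149), with per-cell medians of 70.7 and 1.02 CPM and ranges that overlapped. Its IgAN plates 313, 315, 316, 318 and 325 stood at 416, 256, 0, 181 and 594 CPM, and Control plates 314, 317, 321 and 326 at 194, 194, 0 and 64.7 CPM. With the 3-cell plates 316 and 314 counted, the groups overlapped and Naaa did not meet the rule. Fc and complement receptors had medians of 0.05 in the gated and 0.43 in the leukocyte-positive cells, with 0 of 15 meeting the rule in either set. Of all measured genes, 5.03% were higher and 1.52% lower in the gated cells, and 10.7% and 5.85% in the leukocyte-positive cells. Fcgr2b, the inhibitory Fc receptor, stood at 179 against 109 CPM and Fcer1g, the common Fc receptor gamma chain, at 450 against 434 CPM in the gated cells. Among growth factor receptors and transcription factors of myeloid cells the median was -0.36. Csf1r stood at 344 against 863 CPM, with plates of 44.6 to 852 CPM among the 4 IgAN plates counted and 125 to 1415 CPM in Control, and did not meet the rule. The adhesion list had a median of -0.28 and the cell cycle list 0.28 (-0.22 in the leukocyte-positive cells). No cell cycle gene met the rule, of 15 measured in the gated cells, beside those shares of all measured genes.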

How the data were processed

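The authors deposited counts, that is unnormalized whole read numbers per gene, for 46517 genes and 3143 cells. Per the submitters' processing notes, TopHat2 2.1.1, SAMtools 0.1.18, featureCounts, Subread 1.4.6-p5 and GRCm38 (mm10) were used; the sources used here give no strand setting, annotation or removal of cells. Overlapping and antisense genes can therefore share reads.

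Counts were scaled to CPM over all genes of a cell, or over the summed reads of a group or plate. CPM is not per length, so levels are compared between samples and not between genes. The members and lists were chosen with earlier results of these data known, and the leukocyte split, at 1000 CPM, after its values were seen. No doublet caller was run. A cell carried markers of another class at 1000 CPM. Named genes were the 12 largest differences in each direction that met the size rule (gene models without a name and pseudogenes left out), the leading 15 genes by log2 difference (50 CPM, a read in 25% of cells), list members that met the rule, and examples from each list. The 15 function lists and 18 marker lists came from general knowledge, and 1 name was absent from the table. The script was tested on simulated data. Python 3.11.15, numpy 2.4.6, pandas 2.3.3, scipy 1.17.1 and matplotlib 3.10.9 were used. Alternatives covered the gate, scaling, filter, pseudocount, plates and subsets of the cells.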

Additional observations from a re-analysis of the deposited data

How the results depend on the processing

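No paired analysis was possible because the labels give no animal or shared replicate number and no test was run. Without cells that carried markers of another class, the gated share was 1.00% in IgAN and 1.04% in Control, and for leukocyte-positive cells 1.45% and 1.19%; leaving out 1 plate gave 2.19 to 2.87% and 1.58 to 2.21%. The numbers of genes that met the size rule (536 higher, 162 lower) depended on the choices. A gate of 200 CPM gave 372 lower, median-of-ratios scaling 289 lower and a 50 CPM filter 200 higher. Leaving out cells with other markers gave 2443 and 1571, with 1 plate a group left to compare, and plates of at least 10 cells gave 1378 and 1109. Chosen after seeing the data, the leukocyte-positive cells gave 1052 and 578 (362 and 217 on plates of at least 3 cells), without the Ccr7-high cells 1126 and 563, and without the cells high in neutrophil genes 1062 and 550. Leaving out 1 plate gave 534 to 1043 higher and 163 to 509 lower: 849 and 298 without plate 313, 1021 and 386 without 317, 881 and 509 without 321, and 1043 and 407 without 326. With fewer plates, fewer values must lie apart. A gate of 50 CPM, no filter, a pseudocount of 5, mean CPM of cells, TMM scaling and a log2 limit of 1.5 stayed within 1.5 times. Median-of-ratios scaling moved the median of all genes from 0.11 to -0.18.

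Genes whose sign turned were Spns2 (-0.66) and Coil (2.45) without cells of other markers; Ctps (-0.86), Spns2 (-1.39), Lss (0.56), Strip2 (0.68) and Coil (3.39) in the monocyte gate alone; and Stat2 (1.61) and Nfkbiz (1.497) in the dendritic gates alone; the cause was not tested. Costimulation (-1.86 to -0.65), MHC class I (-1.68 to -0.27), NF-kB (-1.33 to -0.51) and matrix (0.05 to 3.88) kept their sign in all 24 alternatives. The interferon list turned positive in 3, namely the monocyte gate alone, the dendritic gates alone and without plate 317, reaching 2.71. The MHC class II list turned positive in 15 of 24. The cell cycle list took the other sign in 8, the Fc and complement receptors in 7, chemoattractant receptors in 3 and chemokines in 2. The monocyte and dendritic gates alone took cells that passed 1 gate only. For the monocyte gate these were 8 IgAN and 4 Control cells. The dendritic gates alone held 4 IgAN cells of the cDC2 gate, 1 leukocyte-low IgAN cell and 2 Control cells of the mature dendritic gate. Their groups thus differed in kind of cell. Over all gated cells Lss and Strip2 had only 7 and 8 IgAN reads. No Control plate had 5 cells of either gate, so no count could be made there.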

Other observations

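The 25 gated cells with low leukocyte genes and high tubule markers differed in a few genes from the other cells of the table with high tubule markers and low leukocyte genes. They were chosen by Plbd1, so Plbd1 itself (364 against 5.97 CPM) is no finding, and no test was made. Gc, which encodes the vitamin D binding protein, stood at 232 against 31.5 CPM and had a read in 7 of the 25 cells. Il34, a ligand of the Csf1r receptor that tubule cells are known to make, stood at 151 against 22.6 CPM, with a read in 10 of 25. Igf2bp2, an RNA-binding protein, stood at 82.6 against 6.74 CPM, with a read in 11 of 25. Itgb7, an integrin chain of leukocytes, stood at 62.8 against 7.99 CPM, with a read in 14 of 25.

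The leukocyte-positive cells were also led, over all ungated cells, by genes outside the gates. Cd209d, a C-type lectin, stood at 281 against 3.45 CPM, Cd177, a surface protein known from neutrophils, at 264 against 4.57 CPM, and Adam8, a membrane protease of leukocytes, at 295 against 9.65 CPM. Mx1, an interferon-induced antiviral gene, stood at 90.1 against 2.16 CPM, with a read in 11 of 42 cells. Slamf9, a receptor of myeloid cells, stood at 215 against 6.54 CPM, with a read in 12 of 42.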
